A study of Mus musculus with 13 samples.

Results

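The genes described here load peptides onto major histocompatibility complex (MHC) class I molecules or belong to the immunoproteasome, and the data show where the transcriptional regulator BLIMP1 was bound around them. The 10 genes, Tap1, Tap2, Tapbp, Tapbpl, Psmb8, Psmb9, Psmb10, Psme1, Psme2 and Nlrc5, were taken by name from 21887 protein-coding genes on chromosomes 1 to 19, X and Y, and all 10 were matched by symbol. BLIMP1, the product of Prdm1, was precipitated through a GFP tag and its sites read by ChIP-seq. All cells were C57BL/6 and homozygous for a knock-in that fuses EGFP to the N-terminal end of BLIMP1, so no group lacks the tag. Day 2 and day 6 primordial germ cell-like cells (d2 and d6 PGCLC) were grown from embryonic stem cells by way of epiblast-like cells. The d2 PGCLC received LIF and BMP4 and were sorted for KIT, and the d6 PGCLC received LIF, BMP4, BMP8a, SCF and EGF and were sorted for SSEA1 and integrin beta-3. Primordial germ cells (PGC) of E12.5 embryos (E, embryonic day), conceived by sperm injection, were sorted for SSEA1. Epithelium of the E16.5 intestine was sorted for GFP and EPCAM, and photoreceptor precursors from the retina at postnatal day 4 for GFP. Plasmablasts, from B cells held for 3 days with IL-4 and LPS, were sorted for GFP and CD138. The GFP gate keeps cells that make BLIMP1. Each cell type had 2 libraries. For E12.5 PGC these were 1 male and 1 female library, used as its pair. The ChIP lists hold no expression values, so the sorted cell types could not be checked against marker levels.

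A cell displays fragments of its own proteins on MHC class I molecules. The proteasome cuts the fragments, and in cells exposed to interferon its catalytic subunits are replaced by the immunoproteasome subunits Psmb8, Psmb9 and Psmb10, while Psme1 and Psme2 form an activator ring on the proteasome. Tap1 and Tap2 form the transporter that carries peptides into the endoplasmic reticulum, Tapbp (tapasin) bridges the transporter to empty class I molecules, Tapbpl is a relative of tapasin that edits the bound peptide, and Nlrc5 is a transactivator of class I genes. BLIMP1 is known as a repressor whose DNA motif resembles that of the interferon regulatory factors.

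The measurement is a list of summits per library, each the single position in mm10 where a peak was highest. A summit carries no height, so binding is given as present or listed nowhere, and never as strong or weak. The lists held between 7998 and 76185 summits, with a median of 15822.5. The longest list was d6 PGCLC replicate 1, followed by the plasmablast libraries with 45122 and 40750, and the shortest was intestinal epithelium replicate 1. Read depth is unknown, and longer lists reach more genes. The labels give cells per library, in units of 1e5. These were 3 and 30 for d2 PGCLC replicates 1 and 2, and 3 and 10 for d6 PGCLC replicates 1 and 2. They were 3.3 for male and 3.6 for female E12.5 PGC, and 8.8 to 11 for the other cell types. The PGCLC replicates thus differed in cell number, whose effect on the lists was not tested. A gene counted as bound where both libraries of the cell type had a summit inside it or within 1 kb of either end.

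The 10 genes were bound in nearly every cell type. All 10 were bound in d2 PGCLC, against 23% of all protein-coding genes, and all 10 in d6 PGCLC, against 23.6% of all genes. In E12.5 PGC 9 members were bound, against 17.5% of all genes, and the missing one was Psmb8. In intestinal epithelium 8 were bound, against 15.2% of all genes, and Psmb8 and Psme1 were missing. In photoreceptor precursors 9 were bound, against 19.2% of all genes, and Psme1 was missing. In plasmablasts all 10 were bound, but so were 50.5% of all genes. The members were chosen with earlier results of these data known, so these counts are set beside the share of all genes and carry no test.

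**Figure D1:**
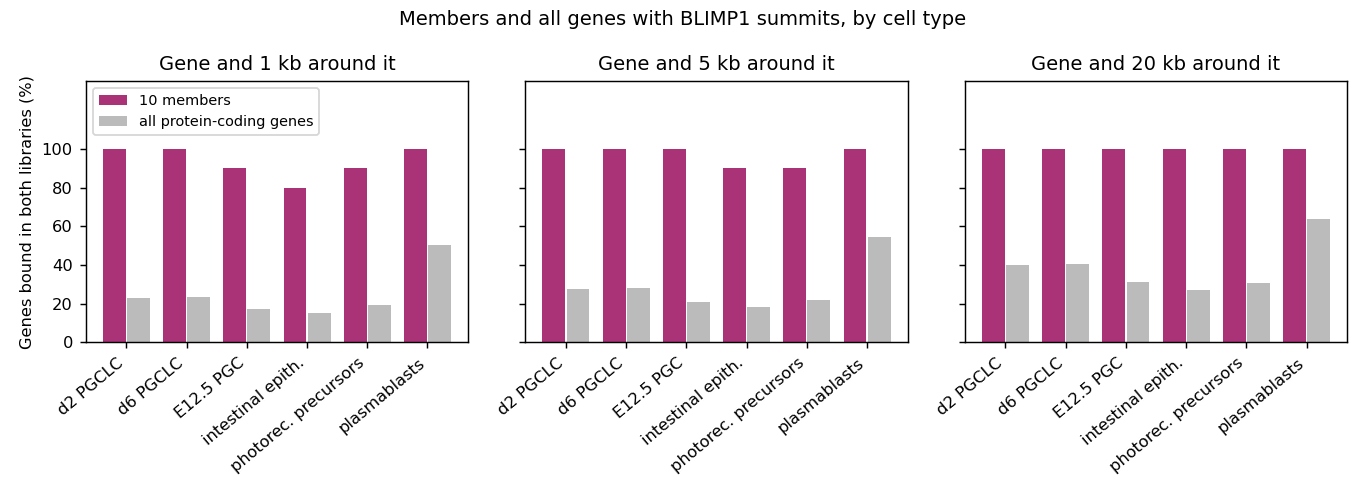
Share of genes with a BLIMP1 summit in both libraries of a cell type (percent, y axis), for the 10 members (purple) and all 21887 protein-coding genes (grey), with windows of 1, 5 and 20 kb around each gene. At 1 kb the members range from 8 of 10 in intestinal epithelium to 10 of 10, and all genes from 15.2% in intestinal epithelium to 50.5% in plasmablasts.

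Single libraries gave like counts. The intestinal libraries had a summit within 1 kb of 8 members each, against 18.7% and 27.6% of all genes, and 8 of the other libraries had one at all 10. The exceptions were the male E12.5 library and photoreceptor precursor replicate 1, with 9 members each, against 21.2% and 22.2% of all genes. Among the libraries with all 10, the share of all genes was 24.5% and 34.7% in d2 PGCLC, 54.9% and 23.9% in d6 PGCLC, 27.9% in female E12.5 PGC, 25.6% in photoreceptor precursor replicate 2 and 53.1% and 55.7% in plasmablasts. In the 3 longest lists, d6 PGCLC replicate 1 and both plasmablast lists, a summit at a gene was thus common, at no less than 53.1% of all genes. Tap1, Tap2, Tapbp, Tapbpl, Psmb9, Psmb10, Psme2 and Nlrc5, 8 of the 10, had a summit in all 12 libraries, against 5.59% of all genes (1223 genes). Counting only summits within 1 kb of a gene end, which leaves out the interior of long genes, also gave 8 members in all 12 libraries, against 2.28% of all genes. By this stricter rule all 10 members were bound in d2 PGCLC, d6 PGCLC and plasmablasts, against 8.41%, 9.72% and 39.7% of all genes, and 9 in E12.5 PGC and 9 in photoreceptor precursors, against 5.79% and 9.68%. In intestinal epithelium 8 were bound, against 7.29% of all genes. With the gene bodies alone, all 10 were bound in d6 PGCLC, 9 in plasmablasts and 8 in each of d2 PGCLC and E12.5 PGC, against 20.2%, 39.1%, 19.7% and 14.9% of all genes. In intestinal epithelium 7 gene bodies were bound and in photoreceptor precursors 6, against 11.5% and 14.8% of all genes, and 5 members had a summit inside the gene in all 12 libraries, against 4.04% of all genes. Tap2, which dropped out of 3 cell types by this rule, has its site at the very end of the gene. Psmb8 and Psme1 had summits in 9 libraries each.

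With a window of 5 kb, 9 members were bound in intestinal epithelium and 9 in photoreceptor precursors, against 18.2% and 21.9% of all genes. All 10 were bound in d2 PGCLC, d6 PGCLC, E12.5 PGC and plasmablasts, against 27.4%, 27.9%, 20.8% and 54.7% of all genes, and 9 members had a summit in all 12 libraries, against 6.80%. Psme1 was the member without a call in intestinal epithelium and photoreceptor precursors. With 20 kb all 10 members were bound in every cell type, against 64.0% of all genes in plasmablasts, 40.3% in d6 PGCLC, 39.8% in d2 PGCLC, 31.2% in E12.5 PGC, 30.9% in photoreceptor precursors and 27.3% in intestinal epithelium. All 10 then had a summit in each of the 12 libraries, against 11.3% of all genes. The wider windows reach the sites of neighbouring genes.

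The summits were next measured against the starts of the genes. The reference table of start windows (RefSeq, GRCm38.p6, which has the coordinates of mm10) held 7 members, Tap1, Tapbp, Psmb8, Psmb9, Psmb10, Psme1 and Psme2, and for these the annotated start was used. Over the 84 pairs of one of these 7 genes and a library, the nearest summit lay within 1 kb of the start in 78, within 500 bp in 67 and within 250 bp in 40, with a median of 232 bp among the 78. In most libraries Tap1 and Psmb9 have the same nearest summit, which is counted for both. The distances were not measured for all genes, so they are not shown to be particular to the members. For Tap2, Tapbpl and Nlrc5 distances were taken from the gene end that had the summits, so their closeness to that end follows from the choice and says nothing of a start. Whether the lists count positions from 0 or from 1 is not stated, so each may be off by 1 bp.

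**Figure D2:**
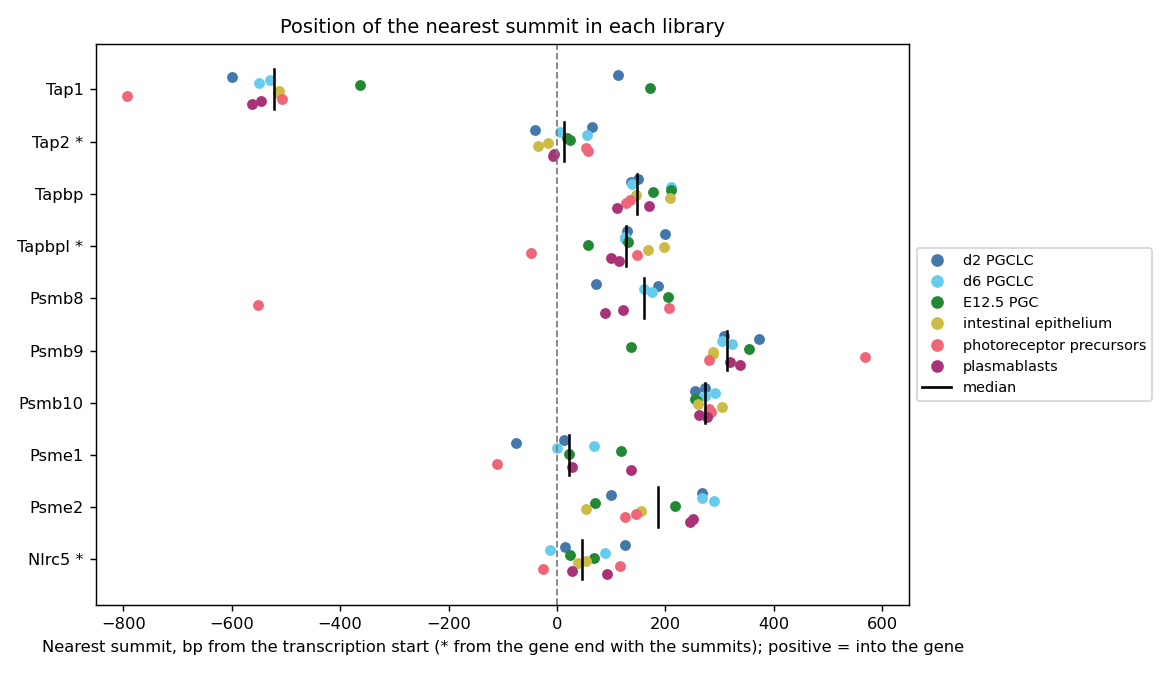
Position of the nearest summit in each library (x axis, bp from the transcription start, positive into the gene; for genes with an asterisk, from the gene end that had the summits), 1 point per library coloured by cell type, black lines at the median. Points farther than 1 kb are not drawn: 3 libraries for Psmb8 and 3 for Psme1. The Psmb10 points span 51 bp and the Psmb9 points 431 bp.

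Among the genes of peptide loading, Tap1 and Psmb9, an immunoproteasome subunit, shared one site. Psmb9 (chromosome 17, 34182030 to 34187330, minus strand) and Tap1 (34187556 to 34197225, plus strand) run in opposite directions from starts 226 bp apart. All 12 libraries had a summit in the region 34186762 to 34187193, which lies inside Psmb9, 137 to 568 bp past its start (median 314 bp). In d2 PGCLC the summits lay 309 and 373 bp into Psmb9, in d6 PGCLC 304 and 323 bp, and in E12.5 PGC 137 bp (male) and 354 bp (female). In intestinal epithelium they lay at 287 and 288 bp, in photoreceptor precursors at 568 and 281 bp, and in plasmablasts at 320 and 337 bp. Apart from the male E12.5 and the first photoreceptor library, the summits sat within 100 bp of the median, 10 libraries of 12. This region counts for Tap1 as well, since it lies within 1 kb of it. Inside Tap1 itself 9 libraries had a summit.

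Inside Tap1 the libraries differed. A region at 34188297 to 34188532 was bound in intestinal epithelium and also had summits of d2 PGCLC replicate 1, d6 PGCLC replicate 2 and female E12.5 PGC. A region near the far end of Tap1, at 34196732 to 34196747, was bound in plasmablasts, and no library of another cell type had a summit there. Between Tap1 and Psmb8, the region 34197610 to 34197644 was bound in photoreceptor precursors and held no summit of any other cell type. The male E12.5 library and both photoreceptor libraries had no summit inside Tap1.

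The sequence between the starts of Tap1 and Psmb9 is shown because both genes start from it, while the shared summits lie beside it, at least 88 bp outside the Psmb9 window and inside Psmb9. The line gives 250 bases before to 50 after the Tap1 start (RefSeq, GRCm38.p6, chr17:34187306-34187605, plus strand), and the capitals mark the 1 match to the word GAAAG on either strand. It overlaps the start window of Psmb9 by 275 bp.
Tap1 and Psmb9 start region: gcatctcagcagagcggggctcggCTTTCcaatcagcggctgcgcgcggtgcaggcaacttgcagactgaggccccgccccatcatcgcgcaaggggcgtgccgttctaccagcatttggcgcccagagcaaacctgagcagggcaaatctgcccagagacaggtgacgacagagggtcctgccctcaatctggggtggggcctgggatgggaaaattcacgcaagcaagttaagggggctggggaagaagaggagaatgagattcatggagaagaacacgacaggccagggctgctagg
The window held no summit of any library. The word GAAAG occurs in 57.3% of all 32851 start windows of the table, so its presence here is common.

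Tap2, the partner of Tap1 in the transporter (chromosome 17, 34204479 to 34216321), had its own site. All 12 libraries had a summit between 34204438 and 34204544, at offsets of -41 to 65 bp from the lower-coordinate end of the gene, positive values being inside it. The photoreceptor summits lay 54 and 58 bp inside the gene, the d6 PGCLC summits 6 and 56 bp and the E12.5 summits 19 bp (male) and 24 bp (female). The plasmablast and intestinal summits lay outside the gene, at offsets of -5 and -8 bp and of -16 and -35 bp. The d2 PGCLC summits fell on both sides, at 65 and -41 bp, as far apart as the whole set. Over the full length of Tap2 the 12 libraries together had 10 summits inside the gene. A further region 34203848 to 34204015, outside the gene, was bound in E12.5 PGC, with no summit of another cell type.

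Tapbp (chromosome 17, 33919478 to 33929290, plus strand) had a summit of every library 110 to 210 bp past its start, between 33919588 and 33919688. The 12 positions spanned 100 bp, and each lay inside the gene. The start of Tapbp lies 153 bp from the end of Zbtb22, so the site is within 1 kb of both genes. A region at the other end, 33929399 to 33929765, within 1 kb of Tapbp and reaching into Rgl2, was bound in plasmablasts and also had summits of d6 PGCLC replicate 1, female E12.5 PGC and intestinal epithelium replicate 2.

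Tapbpl (chromosome 6, 125223927 to 125231860) had 1 bound region within 1 kb, in all 12 libraries. Its summits lay between 125231661 and 125231908, at offsets of -48 to 199 bp from the upper-coordinate end, positive values being inside. The outlying summit was that of photoreceptor precursor replicate 1; the other 11 were inside the gene. Cd27, a receptor gene of the tumour necrosis factor receptor family, lies 760 bp away, so this site too is within 1 kb of a second gene.

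Of the immunoproteasome subunits, Psmb10 had the most tightly placed summits. Psmb10 (chromosome 8, 105935728 to 105938392, minus strand) had a summit in every library 254 to 305 bp past its start, over a span of 51 bp (SD 15.8 bp, n = 12 libraries). The replicates of d2 PGCLC were 19 bp apart, those of d6 PGCLC 18 bp, the E12.5 libraries 3 bp, the intestinal replicates 45 bp, the photoreceptor replicates 4 bp and the plasmablast replicates 14 bp. No cell type stood apart from the others in this position. The nearest gene, Lcat, lies 1159 bp away, and a region between them, 105939263 to 105939548, was bound in plasmablasts and had a summit of d2 PGCLC replicate 1.

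Psmb8 (chromosome 17, 34198195 to 34201454, plus strand) had a summit just past its start in 8 of the 12 libraries. A region just past its start, 34198268 to 34198402, was bound in d2 PGCLC, d6 PGCLC and plasmablasts. The d2 PGCLC summits lay 73 and 187 bp past the start, the d6 PGCLC summits 161 and 176 bp, and the plasmablast summits 122 and 88 bp. Female E12.5 PGC had a summit there at 205 bp, and the male library had none within 5 kb of the start, its nearest being 5653 bp away next to Tap2. Both intestinal libraries likewise had their nearest summit next to Tap2, 6268 and 6249 bp from the Psmb8 start. In photoreceptor precursors replicate 2 had a summit at 207 bp and replicate 1 none in this region. The libraries without a summit there have the shortest lists of all. These hold 7998 and 12115 summits in intestinal epithelium, 10861 in photoreceptor precursor replicate 1 and 12291 in male E12.5 PGC. Whether the site was free of BLIMP1 in these cells was not tested. Both photoreceptor libraries had summits in 2 other regions near Psmb8, the one between Tap1 and Psmb8 and one past the far end, 34201815 to 34201884. This last region was bound in photoreceptor precursors and plasmablasts and had a summit of d6 PGCLC replicate 1.

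**Figure D3:**
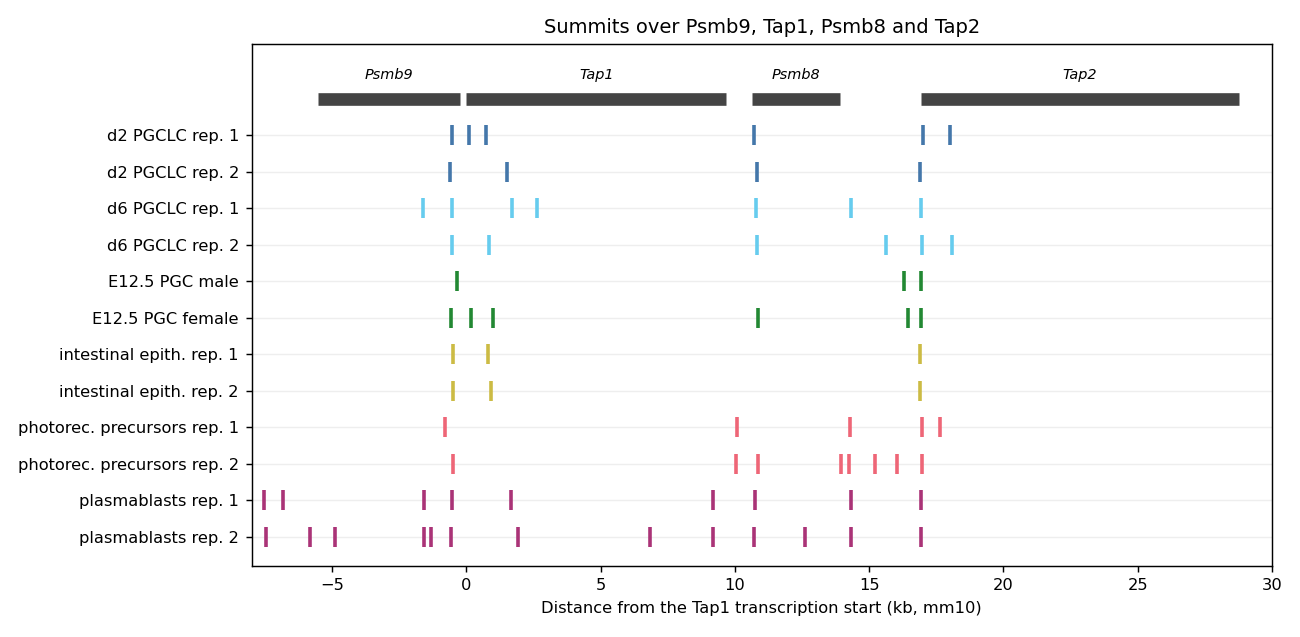
Summits of each library (rows, coloured by cell type) over Psmb9, Tap1, Psmb8 and Tap2; the x axis is the distance from the Tap1 transcription start in kb and grey bars are the genes. All 12 rows have a summit near the right end of the Psmb9 bar and at the left end of Tap2, and 8 rows have one just past the left end of Psmb8.

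The 4 genes of this block lie so close together that sites are counted for several of them. Within 1 kb, 3 bound regions belonged to 2 members each: the Psmb9 and Tap1 site, the intestinal site inside Tap1, and the photoreceptor site between Tap1 and Psmb8. Within 5 kb, 9 bound regions belonged to 2 or more members, and within 20 kb 15. Counting every protein-coding gene, 9 of the 29 bound regions within 1 kb were within 1 kb of 2 or more genes. When each bound region was allowed to stand for 1 member only, 10 members were bound in plasmablasts, 9 each in photoreceptor precursors, d6 PGCLC and d2 PGCLC, and 8 each in intestinal epithelium and E12.5 PGC.

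The activator genes Psme1 and Psme2, whose products assemble into one ring, lie on chromosome 14 and had different patterns. Psme2 (55587440 to 55591101, minus strand) had a summit of every library between 55590811 and 55591047, which is 54 to 290 bp past its outermost start. Both plasmablast summits lay at 251 and 246 bp and the d6 PGCLC summits at 268 and 290 bp. The photoreceptor summits lay 20 bp apart, the first at 145 bp, and the intestinal summits at 54 and 156 bp. The cell types overlapped, since the d2 PGCLC summits were at 267 and 100 bp and the E12.5 PGC summits at 70 and 218 bp. The table gives Psme2 a second start, and its window held the summits of 4 libraries. Psme2b, a retrotransposed copy of Psme2 on chromosome 11, had a summit within 1 kb in 0 libraries.

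Psme1 (55578494 to 55581527, plus strand) had its summits at the start, in 9 libraries. In d2 PGCLC they lay at 13 and -75 bp from the start (positive values are past it), in d6 PGCLC at 69 and 0 bp, and in E12.5 PGC at 118 bp (male) and 22 bp (female). In plasmablasts they lay at 27 and 136 bp, and in photoreceptor precursor replicate 2 at -110 bp. Photoreceptor precursor replicate 1 and both intestinal libraries had no summit within 5 kb of Psme1. The nearest summits of photoreceptor precursor replicate 1 and of intestinal epithelium replicate 2 were at the end of Dcaf11, at -8493 and -8344 bp, and that of intestinal epithelium replicate 1 was the Psme2 site, at 12553 bp. The intestinal lists are among the shortest, and photoreceptor precursor replicate 1 has the second shortest. Whether Psme1 was free of BLIMP1 in these cells cannot be read from lists of unknown depth.

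**Figure D4:**
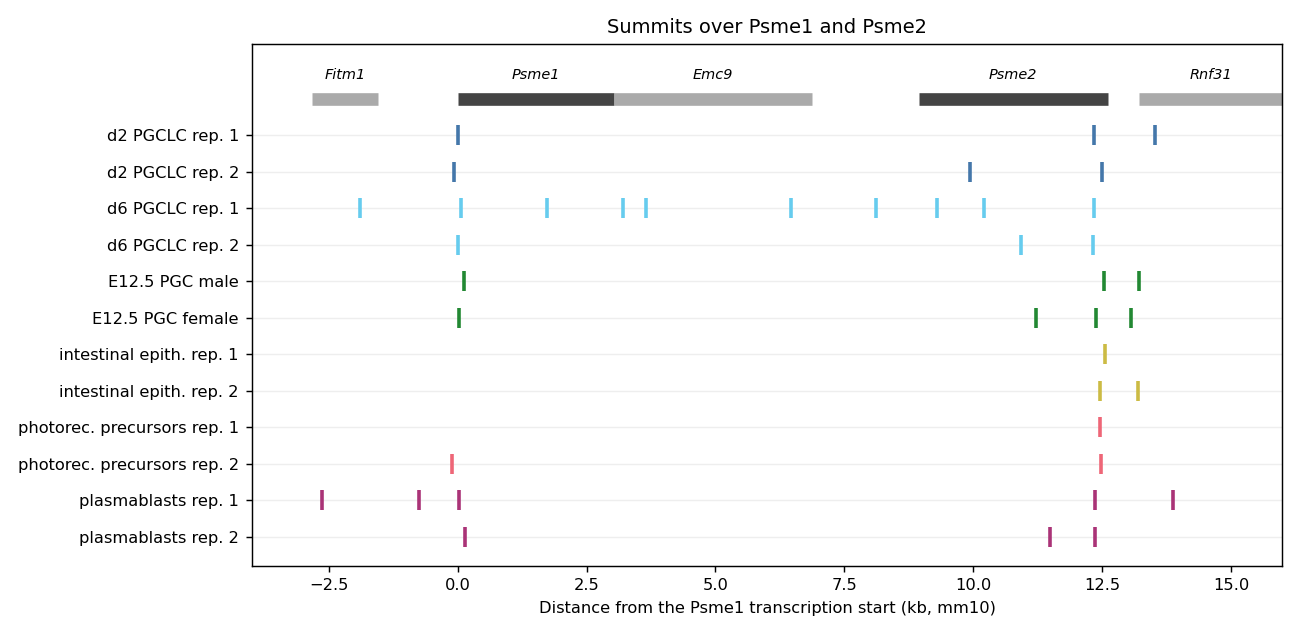
Summits of each library (rows, coloured by cell type) over Psme1 and Psme2 (dark bars) and neighbouring genes (light bars); the x axis is the distance from the Psme1 transcription start in kb. All 12 rows have a summit at the right end of Psme2, while both intestinal rows and photoreceptor precursor replicate 1 have none at Psme1.

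The Psme1 start window is shown because summits of 6 libraries lay inside it and because, of the 8 start windows of members in the table, it was the only one with the longer word searched. The words are letters of the BLIMP1 and interferon response element kind. The shortest was GAAAG and the longer one of these is made of 2 copies of it with any base between them, or, in the narrowest form, with a T between them. A looser form was 2 copies of GAAA with any 2 bases between them. A GAAAG with a G in the second place before it (GNGAAAG) was searched too. Each was searched on both strands, and the pair of GAAAG words contains the looser form. The window of Erap1, which trims peptides in the endoplasmic reticulum and is one of the other genes of the pathway, is set beside it because it held the narrowest form. Both windows were picked at least partly for a match, so the rarity of a word among all start windows is not a result about the pathway. Capitals mark the matches to GAAAG, on the minus strand in both (RefSeq, GRCm38.p6, chr14:55578244-55578543 and chr13:74639603-74639902, plus strand).
Psme1 start window: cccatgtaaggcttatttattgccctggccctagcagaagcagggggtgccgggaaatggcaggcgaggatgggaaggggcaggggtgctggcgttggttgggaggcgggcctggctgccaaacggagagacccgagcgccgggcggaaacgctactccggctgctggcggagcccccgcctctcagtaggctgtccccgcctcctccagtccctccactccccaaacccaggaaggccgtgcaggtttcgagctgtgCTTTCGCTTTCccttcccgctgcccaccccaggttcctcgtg
Erap1 start window: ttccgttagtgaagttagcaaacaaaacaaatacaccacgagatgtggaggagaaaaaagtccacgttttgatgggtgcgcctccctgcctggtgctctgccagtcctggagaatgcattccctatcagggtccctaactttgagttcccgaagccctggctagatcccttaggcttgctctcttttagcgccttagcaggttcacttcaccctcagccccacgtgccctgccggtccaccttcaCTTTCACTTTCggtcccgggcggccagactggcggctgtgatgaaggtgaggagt
In Psme1 the pair of GAAAG words, read on the other strand as the capitals show, lies at 55578502 to 55578512, and the 9 libraries with a summit had it 0 to 123 bp from the middle of the match (median 56 bp). In Erap1 the pair with a T between lies at 74639848 to 74639858, and the nearest summit of all 12 libraries was 2 to 78 bp from its middle (median 28.5 bp). The Erap1 start, at 74639853, lies inside its match, and the Psme1 start, at 55578494, lies just before its match. Distances to the words are thus nearly the same as distances to the starts. Whether the summits follow the word or the start was not tested. GNGAAAG occurs in 22.6% of all start windows. The pair with any base between occurs in 0.463% of all start windows, the pair with a T in 0.0913% and the looser form in 3.44%. A match describes the letters only. The windows of Tap1, Tapbp, Psmb8, Psmb9 and Psmb10 held no summit of any library. Most of the nearest summits lay past the window inside the gene or, for Tap1, inside Psmb9. Among the exceptions, that of photoreceptor precursor replicate 1 lay 551 bp before the Psmb8 start. Those of d2 PGCLC replicate 1 and female E12.5 PGC lay 112 and 171 bp inside Tap1, past its window. The search therefore did not reach the sequence under those summits.

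Nlrc5 (chromosome 8, 94434335 to 94527272) was bound at one end in every cell type. Bound regions farther inside it were mostly those of plasmablasts, with fewer in d6 PGCLC and photoreceptor precursors. Nlrc5 is 92938 bp long, and genes of like length were not counted for comparison. At its lower-coordinate end all 12 libraries had a summit between 94434309 and 94434461, at offsets of -26 to 126 bp, positive values being inside the gene. The whole gene held 12 and 15 summits in the plasmablast libraries and 14 and 3 in the d6 PGCLC libraries. It held 4 and 2 in d2 PGCLC, 1 (male) and 3 (female) in E12.5 PGC, 1 and 1 in intestinal epithelium, and 3 and 1 in photoreceptor precursors. Both plasmablast libraries and d6 PGCLC replicate 1, which are the 3 longest lists, were thus above all others.

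Of the 30 regions within 1 kb of Nlrc5, 11 were bound in plasmablasts, 3 in d6 PGCLC, 2 in photoreceptor precursors and 1 in each other cell type. In 7 of the 11 plasmablast regions no library of another cell type had a summit, and within 5 kb of Nlrc5 in 7 of 12. Over all genes the same held for 50.8% of the plasmablast-bound regions within 5 kb of a gene. Such regions are thus common in plasmablasts. One of the 7, at 94433404 to 94433420, lies just outside the gene, and 5 lie in its first part, between 94439898 and 94458747. The last, at 94493374 to 94493375, had summits of the plasmablast libraries 1 bp apart. A further 7 regions were found in d6 PGCLC replicate 1 alone. A site far inside Nlrc5, 94516882 to 94516967, had summits of 8 libraries and was bound in d6 PGCLC, photoreceptor precursors and plasmablasts, within a span of 85 bp. It also had summits of d2 PGCLC replicate 1 and female E12.5 PGC, and none of the intestinal libraries. Past the other end, the region 94530122 to 94530403 between Nlrc5 and Cpne2 had summits of 8 libraries and was bound in d2 PGCLC, d6 PGCLC and plasmablasts.

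**Figure D5:**
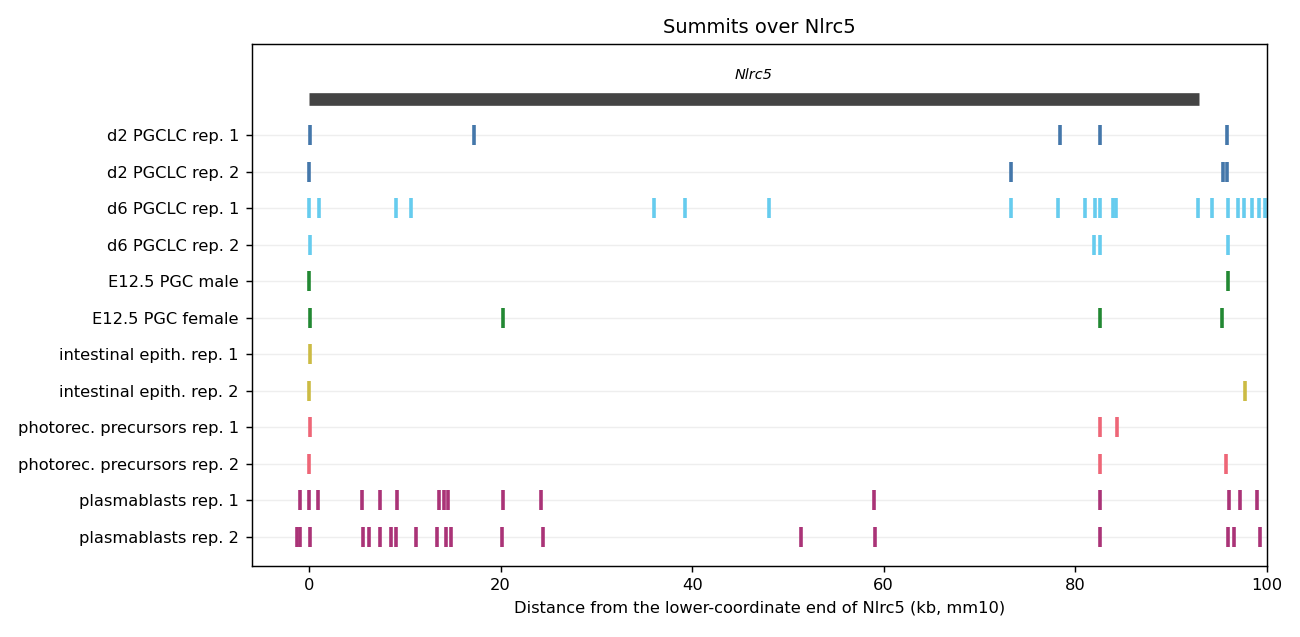
Summits of each library (rows, coloured by cell type) over Nlrc5, shown to 100 kb; the x axis is the distance from its lower-coordinate end in kb. All 12 rows have a summit at 0 kb, and the plasmablast rows have 12 and 15 summits inside the gene, against 1 to 4 in every other row except d6 PGCLC replicate 1, which has 14.

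In all, summits within 5 kb of a member formed 119 regions after merging summits at most 200 bp apart, and 73 of these came from a single library. Bound in at least 1 cell type were 33, and 7 were bound in all 6 cell types: 1 each at Tap2, Tapbp, Tapbpl, Psmb10, Psme2 and Nlrc5 and the one shared by Psmb9 and Tap1. Over the genome 1093 of 155003 regions were bound in all 6, and 41901 were bound in at least 1. These genome counts take in regions far from any gene, so they are not a like base for regions near the members. Plasmablasts had 28 bound regions near the members, of 18350 within 5 kb of any protein-coding gene. By the same counts d6 PGCLC had 12 of 7512, d2 PGCLC 11 of 7671, E12.5 PGC 10 of 4772, photoreceptor precursors 10 of 5495 and intestinal epithelium 8 of 3615. As a share of all bound regions near genes, those at the members thus made up 0.153% in plasmablasts and between 0.143% in d2 PGCLC and 0.221% in intestinal epithelium, so the larger number in plasmablasts goes with their larger number of bound regions. Of the 28 plasmablast regions 9 (32.1%) held no summit of another cell type, against 50.8% of the plasmablast regions near all genes. In photoreceptor precursors it was 1 of 10, against 38% near all genes, in E12.5 PGC 1 of 10, against 2.35%, and in d6 PGCLC 1 of 12, against 6.75%. In intestinal epithelium and d2 PGCLC it was 0, against 15.8% and 4.84%. The long gene Nlrc5 alone gave 12 of the 28 plasmablast regions and 7 of the 9 without another cell type. The d6 PGCLC count differs by library: replicate 1 alone had 51 regions near the members and replicate 2 alone 18. For plasmablasts the numbers were 40 for replicate 1 alone and 52 for replicate 2 alone.

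Relative to the length of the lists, the order of the libraries changed. Distinct summits within 1 kb of the 10 genes numbered 12.0 per 10000 listed in photoreceptor precursor replicate 1, 11.3 in intestinal epithelium replicate 1 and 10.6 in male E12.5 PGC. They numbered 6.87 and 8.42 in plasmablasts, 4.99 in d6 PGCLC replicate 1 and 4.50 in d2 PGCLC replicate 2. The other libraries included intestinal epithelium replicate 2, the third shortest list, with 8.25, so the rate did not follow the length of the list in every library. The numbers behind these rates were small, from 9 summits in intestinal epithelium replicate 1 to 38 in d6 PGCLC replicate 1.

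At the 7 sites held by all libraries the position of the summit did not separate the cell types beyond the spread between replicates, and 0 of 7 had an unadjusted p under 0.05. The distance between the libraries of one cell type was averaged over the 6 cell types and set against the same mean for each of the 10395 possible pairings (exact permutation test, one-sided). At Tap2, where it was smallest relative to other pairings, the mean distance was 31.2 bp, against a median of 44.5 bp over all pairings (exact permutation p = 0.119, adjusted over the 7 sites p = 0.599). At Psmb10 it was 17.2 bp against 18.5 bp, at Tapbp 41 bp against 42 bp, and at Psme2 77.3 bp against 101 bp (exact permutation, adjusted p = 0.599, 0.663 and 0.599). At Tapbpl it was 63.8 bp against 72.8 bp, at the site of Psmb9 and Tap1 101 bp against 96.5 bp, and at Nlrc5 80.2 bp against 58.8 bp (exact permutation, adjusted p = 0.599, 0.795 and 1). At Tap2 the plasmablast, photoreceptor and E12.5 pairs lay 3, 4 and 5 bp apart and the d2 PGCLC pair 106 bp. With d2 PGCLC left out, the Tap2 pairs were closer than nearly all other pairings but still missed the threshold after adjustment (16.2 bp on average, exact permutation p = 0.00952, adjusted p = 0.0667). A p above the threshold does not show that the cell types share one position.

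The constitutive subunits that Psmb9, Psmb10 and Psmb8 replace were listed in fewer libraries. Psmb9 had a summit within 1 kb in 12 libraries and its counterpart Psmb6 in 5. Psmb10 had one in 12 and its counterpart Psmb7 in 7. Psmb8 had one in 9 and its counterpart Psmb5 in 2. Of Psmb5, Psmb6 and Psmb7, 0 were bound in d2 PGCLC, d6 PGCLC, E12.5 PGC and intestinal epithelium, 1 (Psmb7) in photoreceptor precursors and 2 (Psmb6 and Psmb7) in plasmablasts. With 3 genes, these counts lie near the shares of all genes, which were 23%, 23.6%, 17.5%, 15.2%, 19.2% and 50.5% in the cell types as listed. Of all genes, 6.67% had summits within 1 kb in exactly 5 libraries, 4.73% in 7 and 10.6% in 2. In 12 libraries it was 5.59% and in exactly 9 it was 3.69%. No test was made of the 3 pairs, and both sides of each were chosen with earlier results of these data known. Other proteasome genes were not all like them. Of 13 core and activator genes, all 13 were bound in plasmablasts, against 50.5% of all genes. In photoreceptor precursors and intestinal epithelium 7 each were bound, against 19.2% and 15.2% of all genes, in d6 and d2 PGCLC 6 each, against 23.6% and 23%, and in E12.5 PGC 5, against 17.5%. Psma4, Psmb1 and Psmb3 had summits in all 12 libraries.

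The genes that fold, trim or form the class I molecule and its regulators were also counted, without a test. Of Calr, Canx, Pdia3, Erap1 and B2m, which are 3 chaperones, a peptidase and the class I light chain, Erap1 was bound in all 6 cell types. Canx and Pdia3 were also bound in intestinal epithelium, and all 5 in plasmablasts. That is 5 of 5 in plasmablasts, against 50.5% of all genes, 3 of 5 in intestinal epithelium, against 15.2%, and 1 of 5 in each other cell type, against 17.5% to 23.6%. Of 8 heavy chain genes, all 8 were bound in plasmablasts, against 50.5% of all genes, 4 each in d6 and d2 PGCLC, against 23.6% and 23%, and 3 in intestinal epithelium, against 15.2%. In photoreceptor precursors and E12.5 PGC 1 each was bound, near the 19.2% and 17.5% of all genes. Their sequences are so alike that reads may be split among them, and each single call is uncertain. Among regulators of class I genes, Rfx5 had summits within 1 kb in all 12 libraries, against 5.59% of all genes. Irf2 had them in 11 and Rfxap in 6, numbers found for 2.97% and 5.44% of all genes. Irf1 and Rfxank had them in the 2 plasmablast libraries alone. Summits in exactly 2 libraries, whichever these were, were found for 10.6% of all genes. The share with the plasmablast libraries alone was not counted. Within 5 kb Irf1 had summits in 4 libraries.

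Other genes shared the incomplete patterns. Over all genes 808 (3.69%) had a summit within 1 kb in exactly 9 libraries. For Psmb8, 46 other protein-coding genes (0.210%) had one in exactly the same 9 libraries and in no other. For Psme1 48 (0.219%) did. None of these was among the 35 other pathway genes. The pattern of the other 8 members, a summit in all 12 libraries, was shared by 1215 other genes (5.55%), which include Rfx5, Psma4, Psmb3, Erap1 and Psmb1.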

How the data were processed

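Each of 12 libraries has 1 list of BLIMP1 ChIP-seq summits; the input library of male E12.5 PGC was left out and not analysed here. MACS2 2.1, Bowtie 1.1.2, cutadapt 1.7.1 and Trim Galore 0.3.7 are the tools named, per the submitters' processing notes, and the build is mm10. The deposited values are chromosome and position for each library on its own, with no header, height, score or p-value. Threshold, control and read depth are not given in the sources used here. At most 244 positions were identical between any 2 libraries. Whether replicates are separate cultures or animals is not stated, and p-values then reflect how these libraries vary, which may be technical.

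Genes and start windows came from RefSeq tables of GRCm38.p6. Strand was known for 7 of the 10 members; exons, introns and sequence outside the start windows were not used here. Summits at most 200 bp apart, over all libraries, were merged by single linkage, and a bound region needed a summit of both libraries. For distances within a region, the summit nearest to its centre was used for each library. Counting and the exact permutation test ran in Python 3.11.15 with numpy 2.4.6 and pandas 2.3.3 and were tested on simulated data. The members, lists and tests were chosen with earlier results of these data known. Named genes are the 10 members, 35 other pathway genes in 5 lists, and genes next to a member region; the result of 1 pathway gene is not reported here. Alternatives were the windows, the merging distance, the definition of bound, and leaving out each library.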

Additional observations from a re-analysis of the deposited data

How the results depend on the processing

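Of 367 alternative values over 36 results, 346 stayed within 1.5 times the main count or on the same side of the threshold and 21 did not. Many of the 346 could not have moved. Leaving out 1 library lowers the library count of a gene by at most 1. The members bound cannot exceed 10. The total is therefore not a measure of stability. For the members bound, counting only the 7 genes with an annotated start and a window of 1 kb around it gave 5 in intestinal epithelium, a lower count by construction. With 1 library of the pair left out, so that the other alone defined the cell type, the members bound stayed at 10 in d2 PGCLC, d6 PGCLC and plasmablasts and at 8 in intestinal epithelium, and were 9 to 10 in E12.5 PGC and photoreceptor precursors. With the gene body alone Tap2 had a summit in 7 libraries. Regions within 5 kb of a member depended on the number of libraries required. With either library sufficient they numbered 64 in plasmablasts, 57 in d6 PGCLC, 24 in d2 PGCLC, 22 in E12.5 PGC, 21 in photoreceptor precursors and 13 in intestinal epithelium. With 1 library alone they ranged from 40 to 52 in plasmablasts, 18 to 51 in d6 PGCLC, 16 to 19 in d2 PGCLC, 14 to 18 in E12.5 PGC, 13 to 18 in photoreceptor precursors and 9 to 12 in intestinal epithelium. Bound regions within the window of 2 or more genes numbered 20 at 5 kb and 32 at 20 kb. Of the 35 other pathway genes, the number bound by either library was 21 in d2 PGCLC, 17 in E12.5 PGC and 25 in d6 PGCLC. The 20 kb window gave 20 in d2 PGCLC, the gene body gave 7 in photoreceptor precursors, and 1 library alone gave 14 to 25 in d6 PGCLC. The windows around the ends alone, the other windows for single genes, and every alternative for the 35 other pathway genes were chosen after seeing the data.

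For the position of the summits, allowing only pairings of a first with a second library (replicate 1 or the male library with replicate 2 or the female one), as a replicate block, gave a smallest exact permutation p of 0.169 (adjusted p = 0.716) over the 7 sites. Leaving out 1 cell type in turn gave no adjusted p under 0.05; without d2 PGCLC the unadjusted p at Tap2 was 0.00952, under 0.05, with an adjusted p of 0.0667 (exact permutation). Merging at 100 bp left 5 sites and at 500 bp 7, with smallest adjusted p of 0.571 and 0.599 (exact permutation). A stricter peak threshold was not run because the lists carry no score. The unknown depth limits every count of libraries, since the absence of a summit in a list is not the absence of binding.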
